A study of Homo sapiens with 10 samples.

Results

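Claudins and their partners at the tight junction were followed through the hepatic differentiation of H1 cells, a long-established human embryonic stem cell (hESC) line. The genes were taken by name, and all 10 of them were found among the 12125 genes of the deposited table: the claudins CLDN1, CLDN3, CLDN4, CLDN6, CLDN7, CLDN10 and CLDN12, the membrane protein gene OCLN and the scaffold genes TJP1 and TJP3. RNA was sequenced in bulk from 10 libraries, 1 for each day and none repeated. The day 0 library was of undifferentiated hESCs. Days 1, 2 and 3 were under Activin A at 100 ng per ml, days 5 and 7 under BMP2 (20 ng per ml) and FGF4 (30 ng per ml), days 9 and 11 under HGF and KGF at 20 ng per ml each, and day 21 under Oncostatin M (OSM) at 20 ng per ml. The day 13 library is labelled OSM, whereas the lengths of the steps in the protocol place it where HGF and KGF end, and it is described here as the last day of HGF and KGF. All libraries came from 1 cell line and 1 series of cultures.

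Tight junctions seal the space between epithelial cells near their apical side. Claudins are the membrane proteins that form the strands of the seal, and the claudins a cell makes set which ions can pass between cells. Occludin, encoded by OCLN, lies in the same strands, and the zonula occludens proteins encoded by the TJP genes bind the inner ends of claudins and tie them to actin. In the liver the tight junctions of hepatocytes close off the bile canaliculus from the blood side, and claudin-1 and occludin are also entry factors of hepatitis C virus. During an epithelial to mesenchymal transition (EMT), factors of the SNAI and ZEB families are known to repress junction genes through E-boxes, short motifs in the promoters.

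Values are GC-normalized values, made by the authors, in whole numbers. They are not divided by gene length, so levels are compared between days and not between genes. The summed values of the libraries ranged from 2330948 to 2362740 and the median value was 81 or 82 in each, so that the depth of a library cannot be read from them. Differences between days are differences of log2(value + 1), which understate the change of low genes. A gene was counted as changed when this difference was at least 1, a 2-fold change, and the larger value was at least 50. With 1 library per day no difference has a replicate check and no p-value is given. Where a gene is said to set the libraries of some days apart from the rest, the share of all genes that did so was not counted. Days 9 and 11, under the same medium, differed with a standard deviation of 0.36 on the log2 scale over 8444 genes, and the largest difference of a tested member between these days was 0.44. The markers fitted the labelled stages in outline. The summed value of 5 pluripotency markers went from 11089 on day 0 to 94 on day 21. That of 5 endoderm markers was 17 on day 0 and 21635 on day 3, and that of 6 hepatic markers went from 119 on day 3 to 64966 on day 21. These sums hold genes at 18734, the highest value of every library: CER1 on day 3, and AFP, TTR and SERPINA1 on day 21. Markers of other cells were also found. The summed value of 7 stromal markers was 309 on day 3, 19906 on day 13 and 23049 on day 21. That of 6 endothelial markers was 653, 2012 and 1289, and on day 3 most of it was VWF (309) and KDR (240). Of 5 blood cell markers 3 were found, with sums of 1 on day 3, 3412 on day 13 and 1741 on day 21. In bulk RNA, a change in the share of a cell type and a change of RNA per cell cannot be told apart.

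The letters of the promoters are shown first, because the study centred on SNAI1, an EMT factor that binds E-boxes. RefSeq windows of 250 bases before to 50 bases after each start site (GRCh38.p14) were available for all 10 genes, 17 windows in all. The E-box searched was CAGGTG, which reads CACCTG on the other strand. It was found in 7 of the 17 windows and in 6 of the 10 genes, and in 20.6% of all 35116 RefSeq windows and 24.1% of all 27305 genes. Of the 2 windows of CLDN7, 1 held no match and the other 5, of which 1 lay past the start site, and 0.168% of all windows held 4 or more. The 250 bases before that start site, chr17:7262479-7262728 on the minus strand, are printed with the E-boxes in capitals:

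CLDN7: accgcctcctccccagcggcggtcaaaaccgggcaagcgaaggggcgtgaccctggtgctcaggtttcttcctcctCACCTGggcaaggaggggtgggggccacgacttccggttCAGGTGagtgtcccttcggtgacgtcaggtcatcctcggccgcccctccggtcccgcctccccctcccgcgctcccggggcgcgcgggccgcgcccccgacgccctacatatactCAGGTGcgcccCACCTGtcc

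The 4 matches shown begin 174, 135, 20 and 9 bases before the start site. For comparison, the E-boxes closest to a start site among OCLN, TJP1 and TJP3 are shown with their flanks, since these genes moved more than CLDN7. A second start site of TJP3 and 3 more of TJP1 had windows with no match. The E-boxes shown begin 33 bases before the start in OCLN (chr5:69492502-69492531, plus strand), 88 bases in TJP1 (chr15:29969120-29969149, minus strand) and 7 bases in TJP3 (chr19:3721718-3721747, plus strand):

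OCLN: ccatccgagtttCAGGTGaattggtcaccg
TJP1: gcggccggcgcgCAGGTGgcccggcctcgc
TJP3: gaggaagaggggCAGGTGcagccgggagct

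CLDN3 and CLDN6 each had 1 match, 37 and 33 bases after the start site, and the windows of CLDN1, CLDN4, CLDN10 and CLDN12 held none. A match is a run of letters and not a bound site, and these data measure no binding.

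Over the whole course some claudins went down and others up. CLDN6 and CLDN10 had their highest value in undifferentiated cells and fell, whereas CLDN1, CLDN3 and CLDN4 had theirs on day 21. OCLN, TJP1 and TJP3 were highest on day 9 or 11. Of the 10 genes, 4 (CLDN1, CLDN3, CLDN4 and TJP3) were lowest on a day of Activin A. These days made up 3 of the 10 libraries, and the share of all genes lowest on them was not counted. CLDN1 was below its day 0 value of 12 only on day 1 (2), with 18 and 20 on days 2 and 3. CLDN7 and CLDN12 were tested in all 4 steps of the protocol and counted as changed in none. CLDN3 was also counted in none, but it was below the minimum value from day 0 to day 3 and from day 3 to day 7. Between days 3 and 5 it went from 16 to 54 and was counted as higher. The other 7 genes were counted in at least 1 step, and the share of all genes so counted was not computed.

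**Figure D1:**
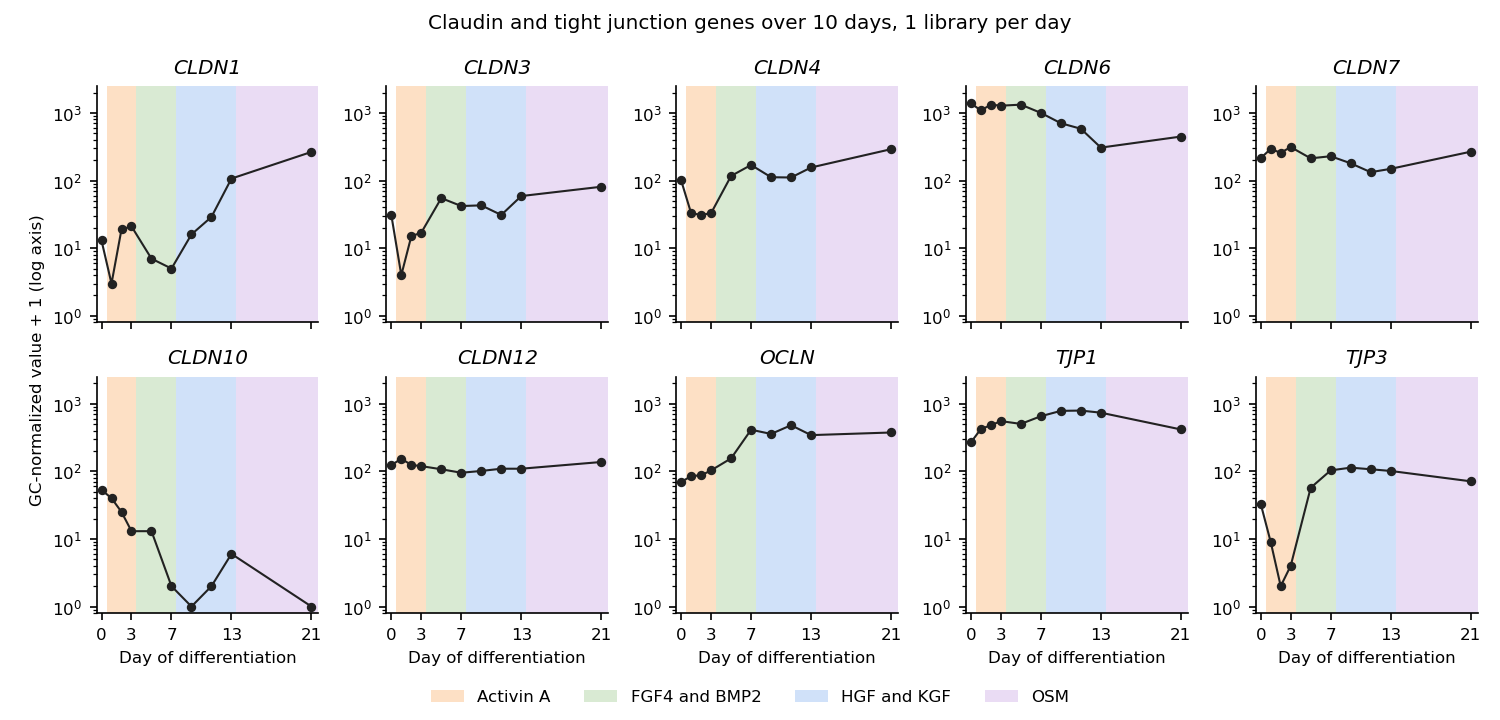
Values of the 10 genes on each day, plotted as GC-normalized value + 1 on a log axis against the day of differentiation, with 1 point for each library and shading for the medium. CLDN3, CLDN4 and TJP3 dip on the days of Activin A and return by day 5, CLDN6 and CLDN10 decline, and CLDN1 rises from day 9 to its highest value of 264 on day 21.

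CLDN6, the claudin of pluripotent and early embryonic epithelia, is listed as ENSG00000184697 on chromosome 16 from 3056167 to 3065839, minus strand. The submitters' notes name the builds hg19 and mm10, and the intervals of this human table are printed as it gives them. CLDN6 had values of 1384 on day 0, 1087, 1324 and 1278 on days 1, 2 and 3, 1324 and 1000 on days 5 and 7, 703, 582 and 306 on days 9, 11 and 13, and 446 on day 21. Its level thus stayed above 1000 until day 5, was lower on each sampled day from day 5 to day 13, and every library from day 9 on lay below every earlier one. The log2 difference was -0.11 from day 0 to day 3 and -1.71 from day 7 to day 13, while it was -1.63 between day 0 and day 21. In GENCODE 29 CLDN6 overlaps TNFRSF12A on the opposite strand and lies 207 bases from CLDN9, a related claudin not among the rows of the table, and since the counting is not stated to use strand, reads of these genes cannot be fully separated.

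CLDN10, a claudin that forms ion-selective pores in kidney epithelia, was the other gene with its highest value on day 0 (ENSG00000134873, chromosome 13 from 96085858 to 96231906, plus strand). It had values of 52 on day 0, 39, 24 and 12 on days 1, 2 and 3, 12 and 1 on days 5 and 7, and 1 and 5 on days 11 and 13, and it was listed at 0 on days 9 and 21. The fall was already present under Activin A, with a log2 difference of -2.03 from day 0 to day 3, and no later library reached the value of day 2. At day 0 the value was close to the minimum of 50, and with the libraries scaled by the median of ratios CLDN10 fell below that minimum and was no longer counted. It overlaps the antisense gene CLDN10-AS1 and DZIP1 in GENCODE 29, so some of these few reads may belong to a neighbour.

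CLDN3 and CLDN4 are neighbours on chromosome 7, on opposite strands, with 29271 bases between their intervals in the table. Both encode sealing claudins of simple epithelia and are receptors of the enterotoxin of Clostridium perfringens. CLDN4 (ENSG00000189143, from 73213872 to 73243696, plus strand) had values of 100 on day 0, 32, 30 and 32 on days 1, 2 and 3, 116 and 169 on days 5 and 7, 111, 110 and 155 on days 9, 11 and 13, and 290 on day 21. The 3 libraries under Activin A lay between 30 and 32 and all other libraries at 100 or above. How many of all genes set these 3 libraries apart in this way was not counted. CLDN4 fell by 1.61 on the log2 scale from day 0 to day 3, and the same fall was present on day 1. It then rose by 2.36 from day 3 to day 7. The difference from day 13 to day 21 was 0.90, short of the 2-fold limit. CLDN3 (ENSG00000165215, from 73183328 to 73184600, minus strand) had values of 30 on day 0, 3, 14 and 16 on days 1, 2 and 3, 54 and 41 on days 5 and 7, 42, 30 and 58 on days 9, 11 and 13, and 80 on day 21. Its Activin A libraries, from 3 to 16, again lay below all others. As no value of day 0 or 3 reached 50, CLDN3 was not tested for this step, and its value of day 21 was 1.39 above that of day 0 on the log2 scale. Over the 10 libraries the Pearson correlation of log2 values of CLDN3 and CLDN4 was 0.87, and Spearman's rho was 0.90.

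TJP3, which encodes zonula occludens-3, a scaffold found mainly in epithelial cells, had the most negative log2 difference from day 0 to day 3 among the 10 genes (-3.04), although both values were below 50. It is listed as ENSG00000105289 on chromosome 19 from 3728374 to 3750682, plus strand. Its values were 32 on day 0, 8, 1 and 3 on days 1, 2 and 3, 56 and 102 on days 5 and 7, 112, 106 and 100 on days 9, 11 and 13, and 70 on day 21. The libraries from day 5 to day 21 all lay above day 0, and the 3 of Activin A all lay below it. From day 3 to day 7 TJP3 rose by 4.69 on the log2 scale, and 1.93% of the 9100 tested genes differed by as much over this step in either direction. The values on days 2 and 3 were so low that the size of the rise depended on the pseudocount, and with 5 in place of 1 it was 3.74.

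CLDN1, the chief sealing claudin of many epithelia and one made by adult hepatocytes, had its highest values on days 13 and 21 (ENSG00000163347, chromosome 3 from 190023490 to 190040264, minus strand). Its values were 12 on day 0, 2, 18 and 20 on days 1, 2 and 3, 6 and 4 on days 5 and 7, 15, 28 and 106 on days 9, 11 and 13, and 264 on day 21. No library before day 13 exceeded 28. CLDN1 rose by 4.42 on the log2 scale from day 7 to day 13, a difference that 0.866% of the 8892 tested genes matched, and by another 1.31 from day 13 to day 21. The rise up to day 13 rests on that library, since on day 11 the value of 28 was below the minimum of 50. Between days 7, 13 and 21 the summed stromal markers went from 4294 to 19906 and 23049, the 6 endothelial markers from 407 to 2012 and 1289, and the 6 hepatic markers from 28184 to 45969 and 64966. All of 7 stromal and 6 hepatic markers were found and none was listed at 0 on these days, while 6 of 7 endothelial markers were found. AFP was at 18734, the highest value of every library, on all of these days, TTR on days 13 and 21, and SERPINA1 on day 21. From day 13 to day 21 ALB (168 to 4866) and SERPINA1 (2640 to 18734) rose, while HNF4A (838 to 470) and APOA1 (4855 to 3428) fell. The part of each cell type in the rise of CLDN1 was not tested.

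OCLN (ENSG00000197822, chromosome 5 from 68788119 to 68853931, plus strand) encodes occludin, and the study used it as an epithelial marker. Its values were 68 on day 0, 84, 86 and 102 on days 1, 2 and 3, 154 and 410 on days 5 and 7, 355, 478 and 341 on days 9, 11 and 13, and 373 on day 21. All libraries from day 7 on, at 341 or above, lay clear of those up to day 5, at 154 or below. The rise from day 3 to day 7 was 2.00 on the log2 scale, and most of it came between days 5 and 7, with a difference of 1.41. GENCODE 29 lists the pseudogene OCLNP1, a copy of OCLN with which reads can be shared. OCLN was thus not lowered on the days of Activin A, in contrast to CLDN3, CLDN4 and TJP3.

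TJP1 (ENSG00000104067, chromosome 15 from 29991571 to 30114706, minus strand) encodes zonula occludens-1, a scaffold that is also made outside epithelia. It had values of 266 on day 0, 421, 478 and 550 on days 1, 2 and 3, 500 and 650 on days 5 and 7, 780, 788 and 733 on days 9, 11 and 13, and 414 on day 21. Day 0 was the lowest library, and the 3 libraries of days 9 to 13 were the highest. The log2 difference was 1.05 from day 0 to day 3, just over the limit, and 0.84 from day 0 to day 2, so that TJP1 was not counted as changed when day 2 stood in place of day 3. With day 2, 0 of 7 tested of the 10 genes were higher and 2 lower (CLDN4 and CLDN10), against 7.39% and 7.34% of all genes. The difference of TJP1 between day 13 and day 21 was -0.82.

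The other claudins moved less. CLDN7, a claudin of the lateral membrane that binds EPCAM, had values between 132 (day 11) and 312 (day 3), and 266 on day 21 (ENSG00000181885, chromosome 17 from 7163222 to 7165797, minus strand). It overlaps ELP5 on the opposite strand. CLDN12, which lacks the C-terminal motif by which most claudins bind the TJP scaffolds, stayed between 94 (day 7) and 152 (day 1), a range of 0.69 on the log2 scale and the smallest of the 10 genes (ENSG00000157224, chromosome 7 from 90013035 to 90042517, plus strand). It overlaps GTPBP10 and CDK14 on the same strand in GENCODE 29. Among the 10 genes the log2 range was 6.46 for CLDN1, 5.82 for TJP3, 5.73 for CLDN10 and 4.34 for CLDN3, each with a lowest value of 3 or less, and 3.23 for CLDN4, 2.80 for OCLN, 2.17 for CLDN6, 1.56 for TJP1 and 1.23 for CLDN7.

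The steps of the protocol were then compared for all 10 genes. From day 0 to day 3 (Activin A), 7 of the 10 reached the minimum value, of which 1 was higher (TJP1) and 2 were lower (CLDN4 and CLDN10). Of all 8934 genes tested, 11.1% were higher and 9.07% lower, and the median log2 difference was -0.08 for the 10 genes and -0.04 for all genes. From day 3 to day 7 (FGF4 and BMP2), 3 of 7 tested were higher (CLDN4, OCLN and TJP3) and 0 lower, against 13.2% and 12.8% of all genes. From day 7 to day 13 (HGF and KGF), 1 of 9 was higher (CLDN1) and 1 lower (CLDN6), against 9.65% and 8.21%. With day 11 as the end of this step 0 of 7 were counted as higher or lower, against 6.2% and 4.32% of all genes, CLDN6 being at 582 and CLDN1 at 28. From day 13 to day 21 (OSM), 1 of 9 was higher (CLDN1) and 0 lower, against 8.57% and 9.08%. The median log2 difference of this step was 0.39 for the 10 genes and -0.1 for all genes. On day 21, 7 of the 10 genes had a larger value than on day 13, and the share of all genes was not counted. With day 11 as the start, 4 of 9 were higher (CLDN1, CLDN3, CLDN4 and CLDN7) and 0 lower, against 10.1% and 10.8% of all genes.

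Between the ends of the course, day 0 and day 21, all 10 genes were tested and 5 were higher (CLDN1, CLDN3, CLDN4, OCLN and TJP3), while 2 were lower (CLDN6 and CLDN10). Over all 9698 genes tested, 23.9% were higher and 26.4% lower. The median log2 difference was 0.87 for the 10 genes and -0.12 for all genes. Over the same interval the summed stromal markers went from 400 to 23049 and the endothelial ones from 588 to 1289. Most of the endothelial sum of day 0 was KDR, which fell from 517 to 302. The other endothelial markers rose, among them TEK from 52 to 768 and CDH5 from 3 to 120. The part of these cells in the differences of the 10 genes was not tested. Between days 9 and 11, in 1 medium, 0 of 7 tested genes were counted as changed, against 1.04% higher and 0.568% lower of all 8444 genes. The steps share their end libraries, so that a low or high library enters the steps on both of its sides.

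Among the 45 pairs of these genes, 6 had a Pearson correlation of at least 0.7 over the 10 libraries and 3 of -0.7 or less, with a median of -0.25. By Spearman's rho, 3 pairs reached 0.7. The genes with the closest courses by Pearson correlation were TJP3 with CLDN4 (0.89), CLDN3 with CLDN4 (0.87) and OCLN with TJP3 (0.80). By Spearman's rho TJP3 with CLDN4 was at 0.67, below 0.7. The 3 pairs that reached it were CLDN3 with CLDN4 (0.90), OCLN with TJP3 (0.79) and CLDN6 with CLDN10 (0.76). CLDN10 and OCLN ran most nearly opposite (-0.93), and CLDN6 ran opposite to both OCLN and CLDN1 (-0.75 each). All genes share the same libraries of 1 time course, so these values are descriptions and no p is given.

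**Figure D2:**
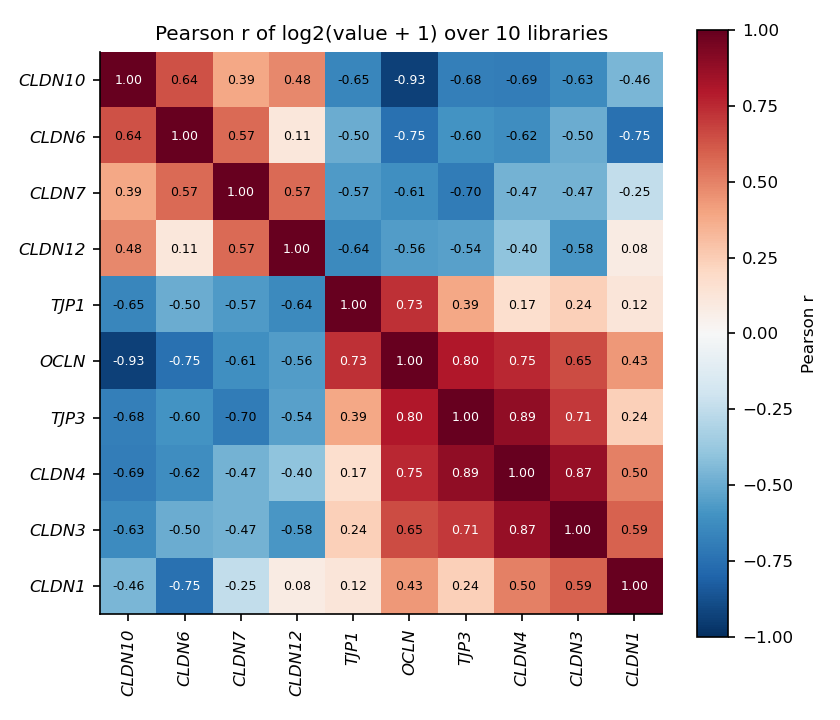
Pearson correlation of log2(value + 1) over the 10 libraries for each pair of genes, from -1 (blue) to 1 (red), with the value printed in each cell. OCLN, TJP3, CLDN4 and CLDN3 form a block with values from 0.65 to 0.89, and CLDN6 and CLDN10 are negative with each of them.

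For the 7 genes with a log2 range of at least 2, the most similar courses were sought among 8480 genes. CLDN4 was followed most closely by ZNF160 (r = 0.976), SH3YL1 (0.972) and TMEM51 (0.971). ZNF160 had values of 182 on day 0, 111 on day 3, 245 on day 7 and 334 on day 21. TJP3 was followed by DCAF7 (0.968), BCAM (0.966) and NPDC1 (0.961), of which BCAM, an adhesion molecule that binds laminin, went from 280 on day 0 to 138 on day 3 and 703 on day 7. CLDN3 was followed by AMY2B (0.953), ANO6 (0.939) and SLC1A4 (0.937). The genes nearest to OCLN were SPARC (0.987), AFP, the fetal serum protein of hepatoblasts (0.986), and TLN2 (0.986). SPARC and AFP are listed from day 7 on at 18734, the highest value of every library, so that their courses are flat there. CLDN6 was nearest to ZNF195 (0.977), KIF5C (0.974) and KIF1A (0.973), and CLDN10 to APIP (0.979), KCNS3 (0.972) and HBS1L (0.972). For CLDN1 the genes were EGFL7, a factor secreted by endothelial cells (0.979), SMOC2 (0.952) and SERPINI1 (0.946). EGFL7 had 92 on day 0, 64 on day 1, 116 on day 3, 70 on day 7, 158 on day 13 and 178 on day 21, a narrower range than that of CLDN1. On days 0 and 3 the endothelial markers differed among themselves. CDH5 was at 3 and 9, ESAM at 1 and 1, and TIE1 at 12 and 6. KDR was at 517 and 240, TEK at 52 and 88, and VWF at 3 and 309. The part of endothelial cells in these courses was not tested. With so many genes and only 10 points, close matches are easily found.

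Fixed lists of the other genes of epithelial junctions held 50 genes that were in the table. Of these, 11 of 44 tested were higher and 3 lower on day 3 than on day 0, against 11.1% and 9.07% of all genes tested. From day 3 to day 7, 10 of 47 were higher and 4 lower, against 13.2% and 12.8%. From day 7 to day 13 there were 5 higher and 4 lower of 48, against 9.65% and 8.21%, and in the OSM step there were 2 higher and 6 lower of 48, against 8.57% and 9.08%. Between days 0 and 21, 13 of 45 were higher and 2 lower, against 23.9% and 26.4%, with a median log2 difference of 0.58 against -0.12 for all genes.

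Of 16 other claudins, 3 were in the table. CLDN11, known from myelin and the testis, had a course of its own, with 22 on day 0, 52 on day 1, 204 on day 2, 205 on day 3, 214 on day 5 and 26 on day 7. It was thus high on days 2 and 3, when CLDN4 and TJP3 were low, and still high on day 5, when both were back above their day 0 values. CLDN19, a claudin of kidney and retina, went from 48 on day 3 to 268 on day 7 and 294 on day 9, and was 102 on day 21. CLDN2, which forms a pore for cations and is made in the liver, was listed at 0 up to day 5, was 3, 1 and 15 on days 7, 9 and 11, and had 82 on day 13 and 37 on day 21. Like CLDN1 and CLDN3, it had its highest values on days 13 and 21. From day 13 to day 21, however, the log2 difference was -1.13 for CLDN2 and 1.31 for CLDN1.

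Among 7 other membrane proteins of tight junctions, none of 6 tested was counted as changed from day 0 to day 3 and none of 6 from day 3 to day 7. Of all genes 11.1% were higher and 9.07% lower in the first interval, and 13.2% and 12.8% in the second. With 6 genes a count of none says little. From day 7 to day 13, 2 of 7 were higher (JAM3 and ESAM, the latter also among the endothelial markers) and 2 lower, against 9.65% and 8.21% of all genes. F11R, the gene of the junctional adhesion molecule JAM-A, lay between 605 and 1279 on all days, and MARVELD2, the gene of tricellulin, between 46 and 122. LSR, of tricellular junctions, and CXADR, the receptor of coxsackievirus and adenovirus, were lower on day 13 (134 and 66) than on day 7 (300 and 138), and CXADR was back at 149 on day 21.

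The plaque proteins, of which 15 were found, lie on the inner side of the junction. AMOT, the gene of angiomotin, went from 24 on day 0 to 59 on day 3, 1890 on day 7 and 166 on day 21. AMOTL2, a relative of AMOT, went from 111 on day 0 to 634 on day 1 and lay between 509 and 872 on later days. CGN, the gene of cingulin, had 289 on day 0, 173 on day 3 and 695 on day 7, with a log2 difference of 2.00 over the second interval.

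Of the 11 polarity genes, 3 of 10 tested were higher on day 7 than on day 3: PARD6B, from 24 to 108, CRB3, from 40 to 144, and MPP5, from 97 to 202. Over this step 13.2% of all genes were higher and 12.8% lower. These encode apical proteins of the PAR and Crumbs complexes, and of the 10 PARD3 was lower, from 234 to 108. Among 14 genes of adherens junctions and desmosomes, 5 were higher and 2 lower (CDH1 and PVRL1) on day 3 than in hESCs, against 11.1% and 9.07% of all genes. PVRL1, the gene of nectin-1, went from 410 to 92, a log2 difference of -2.14. DSP, the gene of desmoplakin, had 376 on day 0, 770 on day 3 and 2970 on day 7, and PKP2, the gene of plakophilin-2, had 88, 234 and 606. CDH1, the epithelial cadherin, fell by 1.03 on the log2 scale from day 0 (697) to day 3 (342). Its rise of 1.42 came late, between day 13 (407) and day 21 (1089). Its lowest library was day 9 (237), when TJP3 was at its highest.

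The EMT factors ran as follows beside these genes. SNAI1 had 4 on day 0, 23, 36 and 24 on days 1, 2 and 3, 24 and 47 on days 5 and 7, 20, 22 and 14 on days 9, 11 and 13, and 6 on day 21. Its highest library was thus day 7, and none of its values reached the minimum of 50. From day 5 to day 7, 5 of the 10 genes had a larger value and 5 a smaller one. The share of all genes was not counted. CLDN4 went from 116 to 169, OCLN from 154 to 410, TJP3 from 56 to 102, CLDN7 from 212 to 228 and TJP1 from 500 to 650. CLDN1 went from 6 to 4, CLDN3 from 54 to 41, CLDN6 from 1324 to 1000, CLDN10 from 12 to 1 and CLDN12 from 106 to 94. ZEB1 had 1 on day 0, 22, 36 and 40 on days 1, 2 and 3, 10 and 28 on days 5 and 7, 52, 41 and 42 on days 9, 11 and 13, and 50 on day 21. On all 3 days of Activin A, CLDN3, CLDN4, CLDN6, CLDN10 and TJP3 were below their day 0 values, while CLDN7, OCLN and TJP1 were above theirs, and CLDN1 and CLDN12 lay on both sides. SNAI2 and ZEB2 rose later, from 49 and 28 on day 7 to 291 and 226 on day 13, when OCLN was at 341 and CLDN1 at 106. Across the 10 libraries the correlation of OCLN was 0.92 with SNAI2 and 0.94 with ZEB2, that of CLDN6 was -0.89 and -0.88, and both follow time. Of the epithelial regulators, OVOL1 had 24 on day 0, was listed at 0 on day 1 and had 2 and 8 on days 2 and 3, 34 on day 5 and 55 on day 7. Its course had a correlation of 0.93 with CLDN3 and 0.87 with CLDN4. GRHL2, a known activator of claudin genes in epithelia, fell by 1.73 on the log2 scale from day 0 (82) to day 3 (24). It had 114 on day 1 and stayed at 36 or below after day 3. Its correlation was positive with CLDN12 (0.79), CLDN10 (0.77), CLDN6 (0.47) and CLDN7 (0.44). It was negative with CLDN3 (-0.61), CLDN4 (-0.41) and CLDN1 (-0.36). Whether any of these factors acted on the genes was not tested.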

How the data were processed

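Bulk RNA-seq of H1 cells was analysed from 1 deposited table. The authors aligned reads to an Ensembl release 76 transcriptome, which their methods call mm10 although the gene symbols are human, with Bowtie2 2.2.0, quantified them with RSEM 1.2.17, and normalized for GC content with EDASeq. The builds in the submitters' processing notes are hg19 and mm10. The values the authors deposited are scores, given as whole numbers that were made alike between libraries, and not read counts, so no count test was used and depth is unknown. Each of the 10 columns was assigned to a sample through its title. Differences of log2(value + 1) were computed over all 12125 genes and called at 1 or more with a larger value of at least 50. With 1 library per day, no test between days was possible. The genes and lists were chosen with earlier results of these data known. Named genes are the members, listed genes with the largest ranges or named by the study, and the 3 genes most correlated with each member of log2 range 2 or more, among genes with a highest value of at least 50 and a range of at least 1. Other listed genes were named after their values were seen. Gene neighbours came from GENCODE 29 and promoters from RefSeq (GRCh38.p14), and neither was joined to the coordinates of the table. Alternatives were other pseudocounts, minimum values, fold limits, a median-of-ratios scaling, neighbouring days and Spearman's rho. Python 3.11.15, numpy 2.4.6, pandas 2.3.3, scipy 1.17.1 and matplotlib 3.10.9 were used. The values of 1 listed gene are not reported here.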

Additional observations from a re-analysis of the deposited data

How the results depend on the processing

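No paired analysis was possible because each day has 1 library and no replicate number. The direction of every called log2 difference of the 10 genes was kept with pseudocounts of 0.1 and 5 and with median-of-ratios scaling, and of 150 such differences 13 moved by more than the spread of 0.36 between days 9 and 11, all of them of CLDN1, CLDN10 and TJP3, whose values fall below 10.

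Counts of the 10 genes moved by more than 1.5 times as follows. With scaling, 1 was lower from day 0 to day 3 (2 as reported) and 1 lower from day 0 to day 21 (2). With no minimum value, 2 were lower from day 3 to day 7 (0), 2 higher from day 7 to day 13 (1), 1 lower from day 13 to day 21 (0) and 1 higher from day 9 to day 11 (0). With a minimum of 200, the counts were 0 lower from day 0 to day 3, 1 higher from day 3 to day 7, 0 higher from day 7 to day 13, and 3 higher and 1 lower from day 0 to day 21. With a log2 limit of 2, they were 0 higher and 1 lower from day 0 to day 3, 0 lower from day 7 to day 13, 0 higher from day 13 to day 21, and 2 higher and 1 lower from day 0 to day 21. Chosen after seeing the data, day 2 in place of day 3 gave 0 higher from day 0, and day 11 in place of day 13 gave 0 higher and 0 lower from day 7 and 4 higher by day 21. By Spearman's rho, 3 pairs reached 0.7 against 6.

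For the 50 other junction genes, a minimum of 200 gave 7 higher from day 0 to day 3 (11 as reported), 2 lower from day 3 to day 7 (4), 1 higher and 2 lower from day 7 to day 13 (5 and 4), 1 higher from day 13 to day 21 (2) and 8 higher from day 0 to day 21 (13). A log2 limit of 2 gave 3 higher and 1 lower, 6 higher and 1 lower, 1 higher and 1 lower, 0 higher and 0 lower, and 4 higher and 1 lower for the same intervals. Scaling gave 2 lower from day 7 to day 13. From day 9 to day 11, no minimum gave 1 higher (0) and the limit of 2 gave 0 lower (1). Fewer genes are counted by construction under a higher minimum or limit, and the other causes were not tested.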
